A study of Mus musculus with 38 samples.

Results

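The genes described here belong to the unfolded protein response and the integrated stress response, and were chosen by name: 36 genes of the 55416 in the count tables. They fall into an ER arm of 26 genes and an ATF4 arm of 10 genes. The ER arm holds 14 chaperones and foldases of the endoplasmic reticulum (ER), 5 genes for the stress sensors and the transcription factor XBP1, and 7 genes of ER-associated degradation. All 36 were matched by symbol to an Ensembl identifier, and all 36 passed the filter on low counts in each of the 3 sets of libraries.

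RNA was sequenced in bulk from the intestinal tract of mice, in libraries labelled black rice, control or WT, in a study of colorectal cancer and diet. Column names of the Apc set include the word Colon, and those of the other sets name no tissue. In the Apc set the arms were black rice, control diet and WT, and each arm had 3 libraries coded F and 3 coded M. The arms of the AOM set were black rice and control diet, with the same number per code, and those of the third set were black rice and control with 4 uncoded libraries each. The third table is named with the letters FMT, unexplained in the labels, so what its mice received beyond the labelled black rice or control is not known here. The names Apc, AOM and WT stand in the titles and tables without further detail: the sources used here give no allele, strain, dose, tumour stage, age or feeding record, and no diet for the WT libraries. Nothing in the labels says that the libraries of a group came from separate animals, so the p-values measure only the spread between these libraries.

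Total counts per library, in units of 1000000, ran from 44.8 to 61.9 in the Apc set, from 37.9 to 55.1 in 11 libraries of the AOM set, and from 66.6 to 91.1 in the third set. The levels of Xist and Ddx3y fitted the code in 30 of 30 coded libraries, and Ddx3y exceeded Xist in the 8 libraries of the third set. In the AOM set 1 library, replicate 3 of black rice F, stood apart at 5.37 of these units. Its summed hepatocyte markers came to 217021 CPM (counts scaled to a library total of 1000000) against at most 514 in the other AOM libraries, and its intestinal epithelium markers to 328 CPM against at least 9274. It entered no comparison below, so black rice F has 2 libraries there. Of 10 markers of exocrine pancreas, another tissue rich in ER chaperones, 3 passed the filter in the Apc set, 4 in the AOM set and 3 in the third set. Cela1 and Clps had the highest counts, at most 11858 and 7158 in an Apc library, against at most 30 for Pnlip, the next. Amy2a3 was at 0 in all sets.

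When unfolded proteins accumulate in the ER, the sensors IRE1, ATF6 and PERK are activated. IRE1 splices the messenger RNA of XBP1, and XBP1 and ATF6 then switch on genes for chaperones, disulfide isomerases and degradation of misfolded proteins. PERK phosphorylates eIF2alpha, which slows general translation while favouring ATF4, and other kinases that sense amino acid shortage reach ATF4 by the same step. Goblet cells, Paneth cells and plasma cells secrete large amounts of protein and keep the ER arm active without injury.

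Promoter elements described for genes of each arm are shown here because the ER arm and the ATF4 arm are compared throughout. The ER stress response element was searched as CCAAT and CCACG with 9 free bases between them, on both strands of RefSeq promoters (250 bases before to 50 after the start, assembly GRCm38.p6, not the build of the count tables). It was found at 9 of the 21 ER arm genes and 0 of the 10 ATF4 arm genes that had a promoter, against 0.137% of all 27025 promoters. The matches follow, 5′ to 3′ on the strand that holds them, with the fixed letters in capitals.
Hspa5: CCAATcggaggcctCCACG
Hsp90b1, upstream match: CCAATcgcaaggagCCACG
Hsp90b1, downstream match: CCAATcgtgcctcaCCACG
Calr: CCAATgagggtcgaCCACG
Canx: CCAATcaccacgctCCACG
Pdia6: CCAATgaaaggcggCCACG
Dnajc3: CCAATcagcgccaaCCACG
Creld2: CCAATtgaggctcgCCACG
Derl3: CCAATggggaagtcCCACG
Syvn1: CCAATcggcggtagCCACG

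The Hspa5 match lay at chr2:34772025-34772043 on the plus strand and began 65 bases before the start, and the Derl3 match lay at chr10:75893242-75893260 on the minus strand, its first base in the direction of the gene 156 bases before the start. The shorter element ERSE-II, searched as ATTGG and CCACG with 1 free base between them, stood at Herpud1 (ATTGGgCCACG) and Dnajb11 (ATTGGcCCACG), against 0.0444% of all promoters. The amino acid response element CARE, searched as TGATGNAA, was found at 3 of the 10 ATF4 arm genes (Asns, Chac1 and Trib3) and at Herpud1, against 4.51% of all promoters. The core TGACGTGG of the unfolded protein response element was found at none of these promoters and at 0.714% of all. A match is a run of letters and not a measured binding site. The 250 bases before the start of Hspa5 (chr2:34771840-34772089, plus strand), with its ER stress response element in capitals, and of Asns (chr6:7693210-7693459, minus strand), with its CARE in capitals, read as follows.
Hspa5: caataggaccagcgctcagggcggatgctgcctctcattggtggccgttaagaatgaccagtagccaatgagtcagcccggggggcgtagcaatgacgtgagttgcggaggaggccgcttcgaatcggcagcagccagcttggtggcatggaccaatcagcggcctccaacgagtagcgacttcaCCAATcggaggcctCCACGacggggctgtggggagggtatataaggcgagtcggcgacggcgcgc
Asns: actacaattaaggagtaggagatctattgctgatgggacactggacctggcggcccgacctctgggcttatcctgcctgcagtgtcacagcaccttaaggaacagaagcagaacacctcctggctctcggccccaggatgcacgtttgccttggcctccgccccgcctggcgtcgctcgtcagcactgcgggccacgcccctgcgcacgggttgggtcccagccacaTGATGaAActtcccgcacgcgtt

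Levels of the members are given as CPM scaled by TMM factors, and between genes as CPM per kb of exon. The most abundant member in the Apc set was Pdia3, a disulfide isomerase that folds glycoproteins, at a median of 266 CPM per kb over 18 libraries. The calcium-binding chaperone Calr followed at 191 CPM per kb, the ER HSP90 Hsp90b1 at 122 and the ER HSP70 Hspa5 (BiP) at 99.4. Atf4 itself, at 85.7 CPM per kb, was the most abundant gene of its arm. Of the transcripts most closely tied to acute stress, Ddit3 (CHOP) stood at 9.57 CPM per kb, above the sensor genes Atf6 at 8.44 and Ern1 at 5.89. Chac1, which degrades glutathione, at 0.396 and the pseudokinase gene Trib3 at 0.328 were the scarcest members. The same members were highest and lowest in the other sets, with Pdia3 at 277 CPM per kb in the AOM set and 231 in the third set, and Trib3 at 0.263 and 0.144. Ddit3, Hsp90b1, Manf and Eif2ak3 share 10.9%, 15.7%, 9.25% and 8.05% of their exon bases with other annotated genes, and reads that fall there may be left out or assigned to the neighbour.

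No member passed an adjusted p of 0.05 in any of the 16 comparisons by edgeR's quasi-likelihood test with Benjamini-Hochberg adjustment. The shares of all genes that passed in the Apc black rice against control comparisons were 0.0139% over both codes, 0% in F libraries and 0.0324% in M libraries. They were 0.0139% for black rice against WT over both codes and 0.00925% in M libraries, and 0% in the rest. Counts at an unadjusted p under 0.05 are therefore given for each comparison, beside the share of all tested genes that reached it in the same direction. DESeq2 called up to 4 members in the Apc set and 1 in the AOM set, named with their comparisons. It also called more genes in all. In the Apc diet comparisons these were 193 over both codes, 170 in F libraries, 145 in M libraries and 103 for F minus M, of 37461 tested. For Apc black rice against WT they were 68 over both codes and 43 in F libraries, and in AOM M libraries 230 of 38000.

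In the M libraries of the Apc set, chaperones and foldases were higher with black rice than with the control diet for 14 of 14 genes, where 48.3% of all genes were, with a median log2 difference of 0.58 and a range from 0.10 to 1.15. Genes of a list share the same libraries and are not independent observations, here and below. The mean log2 CPM of the 14 was 7.45, 7.66 and 8.03 in black rice M libraries and 6.79, 7.27 and 7.24 in control M libraries. The median over the 26 ER arm genes was 0.38, over the 10 ATF4 arm genes 0.08 and over all genes tested -0.01. At an unadjusted p under 0.05, 12 ER arm genes and 2 ATF4 arm genes were higher, that is 14 of 36 members where 3.67% of all genes were, and 0 were lower, where 4.86% were. The 12 ER arm genes became 5 without black rice M replicate 3 and 6 without control M replicate 1. Groups did not overlap for 12 members that were higher, where 6.23% of all genes were, and for Trib3, which was lower, where 6.79% were.

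Manf, a secreted ER stress protein with neurotrophic activity, had the smallest p of these. It stood at 164, 166 and 233 CPM in black rice M libraries and at 69.1, 105 and 79.5 CPM in control M libraries. All 3 black rice values lay above all 3 control values. The log2 difference was 1.15 (SE 0.30, adjusted p = 0.294 by edgeR's quasi-likelihood test), and DESeq2 called it, as the only member in this comparison.

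Creld2, an ER protein with disulfide isomerase activity, stood at 50.1, 50.7 and 73.4 CPM in black rice M libraries, against 24.7, 40.9 and 33.8 CPM in control M libraries (log2 difference 0.81, SE 0.25, adjusted p = 0.392 by edgeR). Hspa5, which binds unfolded chains and holds the sensors inactive, stood at 478, 655 and 790 CPM, against 258, 378 and 372 CPM (log2 difference 0.93, SE 0.29, adjusted p = 0.394 by edgeR). Neither pair of groups overlapped. Hyou1, Sdf2l1, Pdia6, Dnajb11 and Pdia4 had log2 differences of 0.88, 0.87, 0.81, 0.63 and 0.54, and Canx and Dnajb9 the smallest of the chaperones, at 0.15 and 0.10.

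The 5 genes of the sensors and XBP1 had log2 differences from 0.05 to 0.71 in M libraries, none at an unadjusted p under 0.05. Xbp1 stood at 233, 270 and 274 CPM with black rice and at 181, 256 and 211 CPM with control, so that the groups overlapped (log2 difference 0.26, SE 0.19). Ern2, the IRE1 paralogue of goblet cells, stood at 75.1, 154 and 139 CPM against 75.6, 50.9 and 98.5 CPM (log2 difference 0.71, SE 0.34). Ern1, Atf6 and Eif2ak3, which encode IRE1alpha, ATF6 and PERK, had log2 differences of 0.05, 0.27 and 0.33. Among the degradation genes Sel1l, the scaffold of the HRD1 ubiquitin ligase, had the largest log2 difference, 0.37, and Herpud1 the lowest, -0.22.

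The ATF4 arm was split in M libraries. Asns and Psat1 were its 2 genes higher with black rice at an unadjusted p under 0.05. Asns, asparagine synthetase, stood at 40.0, 41.1 and 67.1 CPM against 16.6, 26.6 and 31.3 CPM in control (log2 difference 0.99, SE 0.37, adjusted p = 0.487 by edgeR), with no overlap. The serine pathway genes overlapped between the groups. Psat1 stood at 17.6, 9.86 and 26.1 CPM against 5.79, 10.3 and 8.51 CPM (log2 difference 1.12, SE 0.49), and Phgdh at 15.2, 11.4 and 25.0 CPM against 7.25, 13.9 and 8.49 CPM (0.80, SE 0.39). Ddit3, the proapoptotic factor of the response, stood at 20.1, 16.4 and 13.3 CPM against 18.8, 14.9 and 18.9 CPM, a log2 difference of -0.08 (SE 0.18). Trib3, Ddit4, an inhibitor of mTORC1, and Ppp1r15a, the regulatory subunit (GADD34) that reverses eIF2alpha phosphorylation, had log2 differences of -0.79, -0.73 and -0.42, none at an unadjusted p under 0.05.

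In the F libraries of the Apc set the direction was the opposite. Chaperones and foldases were lower with black rice for 14 of 14 genes, where 49.5% of all genes were, with a median log2 difference of -0.40 and a range from -0.67 to -0.06, and all 7 degradation genes were lower. The median was -0.22 over the ER arm, -0.35 over the ATF4 arm and 0.01 over all genes tested. At an unadjusted p under 0.05, 8 of 36 members were lower (Pdia4, Sdf2l1, Creld2, Hyou1, Xbp1, Derl3, Syvn1 and Chac1), where 5.73% of all genes were, and 0 were higher, where 4.51% were. The groups did not overlap for 9 members, all lower, where 11% of all genes did so.

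Derl3, a derlin that moves misfolded proteins out of the ER, had the smallest p of any member here. It stood at 1.97, 1.49 and 1.35 CPM in black rice F libraries and at 5.85, 6.98 and 12.8 CPM in control F libraries. Each black rice value was below each control value. The log2 difference was -2.41 (SE 0.35, adjusted p = 0.0538 by edgeR's quasi-likelihood test), just outside the threshold. Derl3 passed with DESeq2, with no low-count filter, and without control F replicate 1.

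Xbp1 stood at 178, 127 and 125 CPM in black rice F libraries and at 211, 210 and 247 CPM in control F libraries, without overlap (log2 difference -0.63, SE 0.19, adjusted p = 0.351 by edgeR). The black rice F libraries were not alike: Hspa5 stood at 507, 237 and 261 CPM against 421, 460 and 420 CPM in control, and Manf at 111, 54.6 and 52.8 CPM against 109, 113 and 105 CPM. Replicate 1 of black rice F thus lay within or above the control range for both genes, and replicates 2 and 3 below it. Without that replicate 11 ER arm genes reached an unadjusted p under 0.05 in F libraries, and without replicate 2 or replicate 3 of black rice 3 did, against 7 with all libraries. Leaving out replicate 1 or replicate 3 of control F instead, 4 did.

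Chac1 and Trib3 rested on 1 library. In control F replicate 1, Chac1 stood at 2.95 CPM and Trib3 at 2.78 CPM, whereas the other 17 Apc libraries reached at most 1.58 and 1.09 CPM. With that library the log2 difference over both codes was -0.48 for Chac1 (SE 0.41, adjusted p = 0.706 by edgeR) and -0.68 for Trib3 (SE 0.40, adjusted p = 0.568). Without it Chac1 stood at 0.02, and the median of the ATF4 arm in F libraries moved to -0.05.

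**Figure D1:**
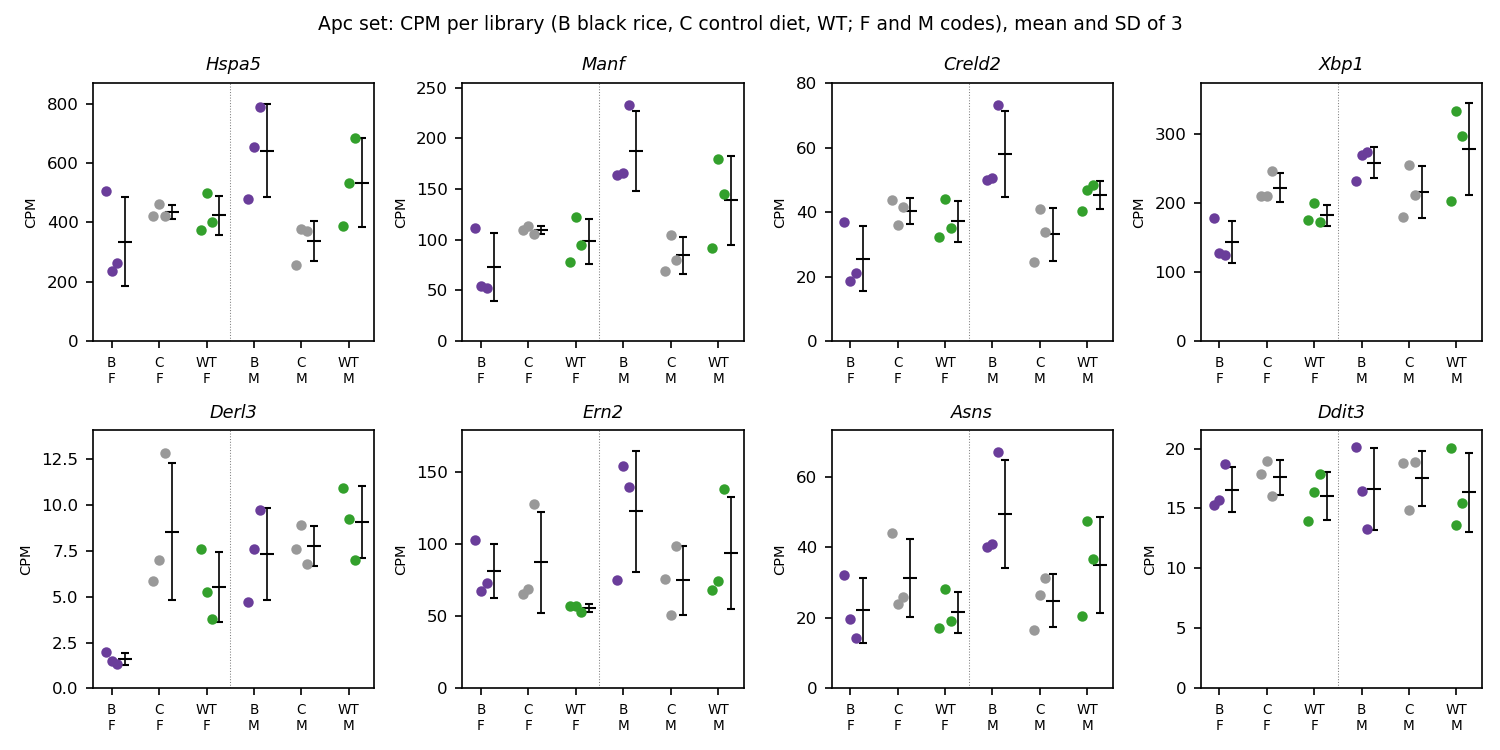
CPM per library (y axes, linear and starting at 0) of 8 members in the 6 groups of the Apc set, with F libraries on the left of the dotted line and M libraries on the right. Points are libraries and the bar shows the mean with the SD of 3. Black rice M libraries of Manf lie between 164 and 233 CPM, above the control M libraries, and black rice F libraries of Derl3 lie between 1.35 and 1.97 CPM, below all others.

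The difference between the codes was tested itself, as the F difference minus the M difference. It was below 0 for 14 of 14 chaperones and foldases, where 48.8% of all genes were, with a median of -1.05. The median over the ER arm was -0.64, over the ATF4 arm -0.27 and over all genes 0.01. At an unadjusted p under 0.05, 15 of 26 ER arm genes and 4 of 10 ATF4 arm genes (Atf4, Asns, Psat1 and Phgdh) were below 0, where 4.58% of all genes were, and 0 were above, where 4.31% were. No gene of the table passed an adjusted p of 0.05 in edgeR for this difference. Derl3 had a value of -2.33 (SE 0.48, adjusted p = 0.175), Creld2 of -1.47 (SE 0.35, adjusted p = 0.274), Asns of -1.50 (SE 0.53, adjusted p = 0.453) and Atf4 of -0.52 (SE 0.22, adjusted p = 0.520). DESeq2 called Pdia4, Creld2, Manf and Derl3. Leaving out each library in turn, between 10 and 18 ER arm genes reached an unadjusted p under 0.05.

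**Figure D2:**
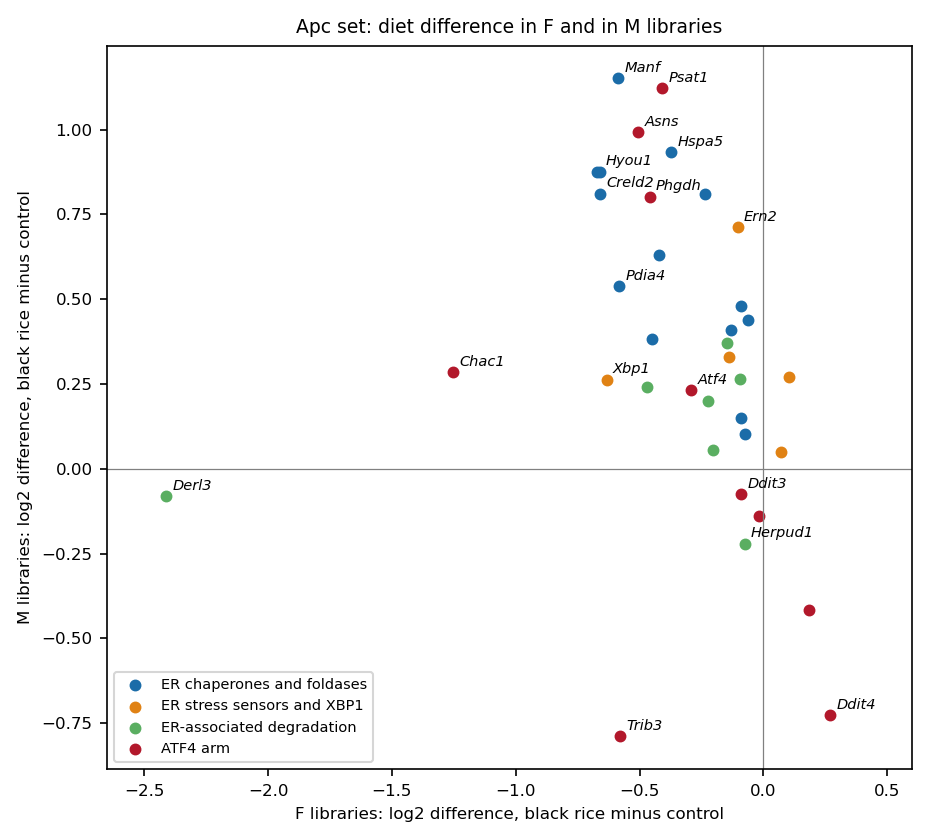
Log2 difference between black rice and control in M libraries (y axis) against the same in F libraries (x axis) for the 36 members in the Apc set, coloured by role. The 14 chaperones and foldases lie in the upper left, higher in M and lower in F libraries, and Derl3 lies far to the left at -2.41.

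Taken over both codes, the Apc diet differences were small. The median was 0.09 for the ER arm, -0.08 for the ATF4 arm and -0.01 for all genes, and 1 member, Derl3, reached an unadjusted p under 0.05, where 6.06% of all genes were lower at that level. Derl3 had a log2 difference of -1.25 (SE 0.24, adjusted p = 0.126 by edgeR), and DESeq2 called it. Atf6 had the next smallest p of the ER arm, with a log2 difference of 0.19 (SE 0.11, adjusted p = 0.562 by edgeR).

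Markers of several cell types also differed between the groups, some in the direction of the ER arm and some against it. In bulk RNA fewer cells of a type and less RNA per cell cannot be told apart. The 12 goblet cell markers summed to between 42415 and 70425 CPM in black rice M libraries and between 10731 and 24291 CPM in control M libraries, without overlap. Much of the sum was Clca1, at 15397 to 40400 CPM and 1422 to 7509 CPM, and the other 11 summed to 27018 to 30025 CPM and 9309 to 18774 CPM. By gene, 8 of the 12 were higher and 4 lower, with a median log2 difference of 0.34. The 7 Paneth-type markers summed to between 21838 and 48416 CPM and between 43.8 and 12441 CPM in the same groups. Most of the higher sums was Mptx1, at 19941 to 44685 CPM and 20.4 to 12136 CPM. The other 6 summed to 1897 to 5885 CPM and 14.3 to 305 CPM. The defensin genes Defa24 and Defa17 had at most 63 and 2 counts in an Apc library, so these sums say little about Paneth cells themselves. Of the 5 Paneth-type markers tested 4 were higher and 1 lower, and 2 were higher at an unadjusted p under 0.05, where 3.67% of all genes were. In F libraries the goblet sums overlapped, at 11516 to 28164 CPM with black rice and 11843 to 28114 CPM with control. At an unadjusted p under 0.05, 4 of 12 goblet markers were higher in M libraries, where 3.67% of all genes were, and 0 of 12 reached it in F libraries, where 4.51% were higher and 5.73% lower.

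Plasma cell markers, 10 in number, summed to between 1100 and 2139 CPM in black rice F libraries and between 5899 and 13644 CPM in control F libraries. All 10 were lower and 8 reached an unadjusted p under 0.05, where 5.73% of all genes were lower at that level. In M libraries the sums overlapped, at 5137 to 8414 CPM with black rice and 7118 to 12247 CPM with control, and 8 of 10 markers were lower (median log2 difference -0.41), opposite to the chaperones. Proliferation markers were higher for 7 of 7 genes in M libraries and lower for 6 of 7 in F libraries, and 7 of 7 were below 0 for the F minus M difference, 2 of them at an unadjusted p under 0.05, where 4.58% of all genes were. Hepatocyte markers, of which Apob is also a gene of enterocytes, went the other way: 8 of 8 were lower in M libraries, 8 of 8 higher in F libraries, and 7 of 8 above 0 at that level for F minus M, where 4.31% of all genes were. They summed to 153 to 291 CPM in black rice M and 307 to 367 CPM in control M libraries. Apob had the highest counts of these markers in the Apc set, at most 27081 in a library, against at most 5626 for Ttr, the next. Macrophage markers were lower for 7 of 7 genes in M and 6 of 7 in F libraries. Smooth muscle markers were higher with black rice for 8 of 8 genes in both codes, and intestinal epithelium markers were lower for 9 of 10 in F and 7 of 10 in M libraries. None of these markers passed an adjusted p of 0.05 in edgeR, and the part of cell content in the results of the members was not tested beyond the relations that follow.

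Across libraries, 36 relations were computed between 6 members and the mean log2 CPM of goblet or plasma cell markers, with p-values adjusted over the 36, and 8 passed 0.05. Derl3 followed the plasma cell markers in each set. In the Apc set Pearson's r was 0.95 and Spearman's rho 0.88 (n = 18, permutation test, adjusted p of r = 0.00018, from the smallest p that 100000 resamples give), and r was 0.92 without the 2 libraries farthest from the median. The 3 black rice F libraries lay apart from the other 15, over which r was 0.85, and within groups r was 0.80 (adjusted p = 0.0459, permutation test). In the AOM set r was 0.90 and rho 0.90 (n = 11, permutation test, adjusted p = 0.00162), and 0.85 without the 2 farthest. In the third set r was 0.91 and rho 1.0 (n = 8, exact permutation test, adjusted p = 0.00622), and 0.83 without the 2 farthest. Within groups r was 0.93 in the AOM set and 0.90 in the third set, with an adjusted p of 0.0833 in both by permutation tests.

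Xbp1 followed the goblet cell markers in the Apc set, with r = 0.82 and rho = 0.82 (n = 18, permutation test, adjusted p = 0.00018), 0.75 without the 2 farthest libraries, and 0.83 within groups (adjusted p = 0.0100). In the AOM set r was -0.14 (n = 11, permutation p = 0.686). In the third set r was 0.76 (n = 8, exact permutation p = 0.0377, not past 0.05 after adjustment) and 0.36 without the 2 farthest, so that it rested on those libraries. Sdf2l1, Creld2 and Hspa5 had r of 0.74, 0.73 and 0.68 with goblet markers in the Apc set (adjusted p 0.00162, 0.00187 and 0.00855, permutation tests). Within groups their r was 0.59, 0.55 and 0.45, and none passed 0.05 after adjustment (0.0935, 0.103 and 0.259). Their r in the AOM set was -0.41, -0.43 and -0.46, with permutation p of 0.216, 0.191 and 0.152. There rho was -0.14, -0.12 and -0.35, and r without the 2 farthest libraries -0.041, -0.17 and -0.37. Ern2, the goblet cell paralogue, had r = 0.51 with goblet markers in the Apc set (adjusted p = 0.0973, permutation test) and 0.15 within groups. Xbp1 had r = 0.71 with plasma cell markers in the Apc set (adjusted p = 0.00622, permutation test), which came to 0.43 without the 2 farthest libraries and to 0.32 without the black rice F libraries. The 6 members and the markers share the libraries, their depth and their scaling.

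**Figure D3:**
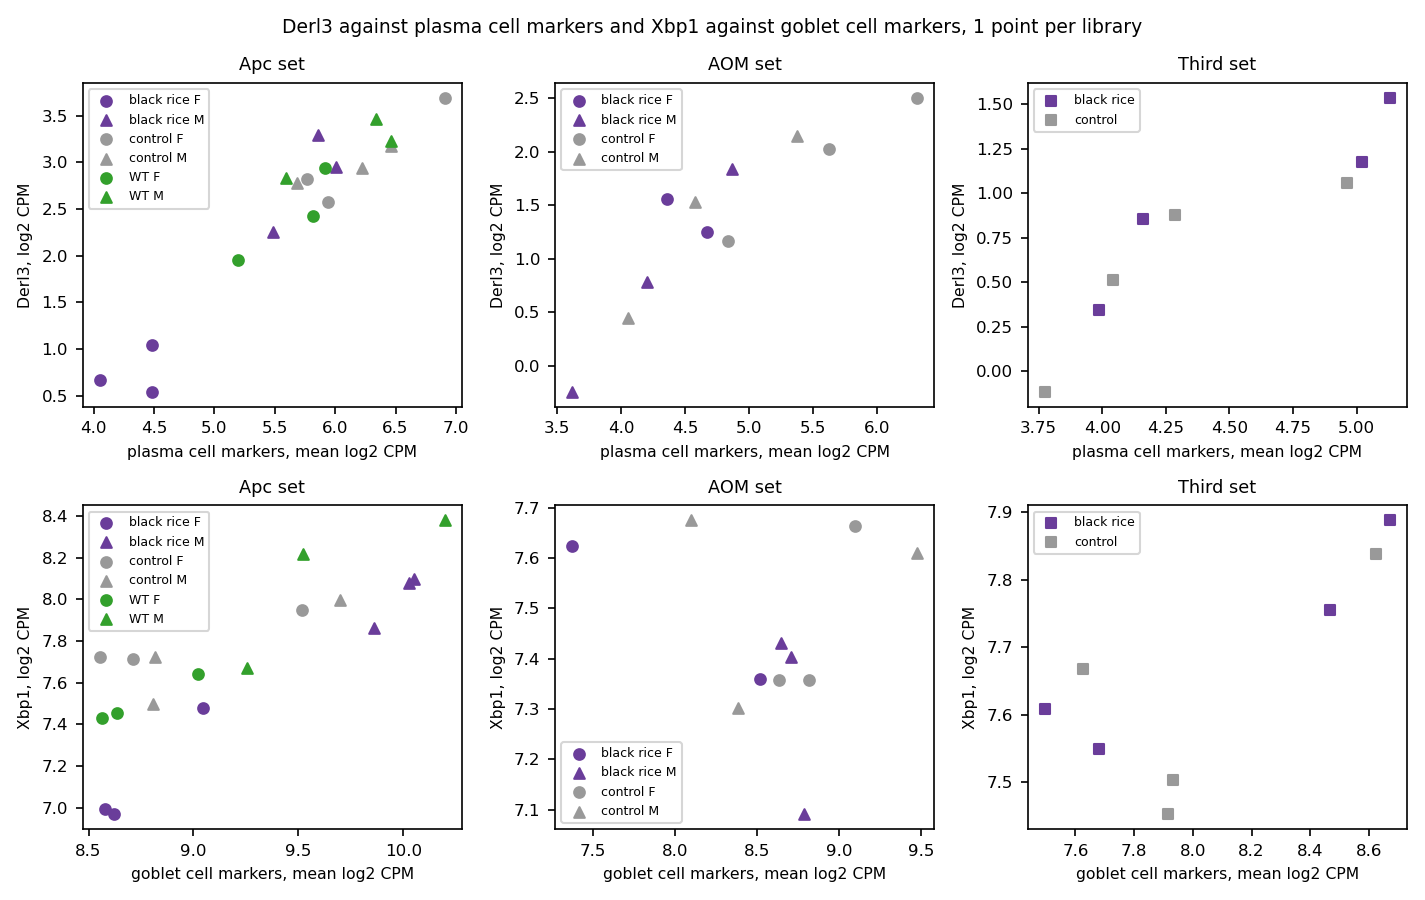
Upper row, log2 CPM of Derl3 (y axes) against the mean log2 CPM of 10 plasma cell markers (x axes). Lower row, Xbp1 against 12 goblet cell markers, with 1 point per library, for the Apc set, the AOM set and the third set from left to right. Derl3 increases with the markers in all 3 sets (r from 0.90 to 0.95), whereas Xbp1 does so in the Apc set (r = 0.82) and not in the AOM set (r = -0.14).

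Control and WT libraries of the Apc set were compared next. This comparison shares its control libraries with the diet comparison, so the values stand side by side and are not independent. Over both codes the median was -0.05 for the ER arm and 0.08 for the ATF4 arm, and 0 of 36 members reached an unadjusted p under 0.05, where 2.21% of all genes were higher and 2.03% lower. Derl2 (-0.14, SE 0.08) and Hspa5 (-0.32, SE 0.20) had the smallest p of the ER arm, and Chac1 (0.69, SE 0.41) and Trib3 (0.63, SE 0.40) of the ATF4 arm, each with an adjusted p of 0.999 by edgeR. Without control F replicate 1, Trib3 stood at -0.01.

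In M libraries, all 14 chaperones and foldases were lower in control than in WT, where 49% of all genes were, with a median log2 difference of -0.37. Hspa5 stood at 258, 378 and 372 CPM in control M libraries and at 386, 533 and 683 CPM in WT M libraries, without overlap (log2 difference -0.67, SE 0.29). Manf stood at 69.1, 105 and 79.5 CPM against 92.2, 180 and 145 CPM, with overlap (log2 difference -0.72, SE 0.29). Hspa5, Manf and Derl2 were lower at an unadjusted p under 0.05, where 1.43% of all genes were. In F libraries 13 of 14 were higher in control, where 51.3% of all genes were, with a median of 0.11, and Chac1 was the only member at an unadjusted p under 0.05, where 1.58% of all genes were higher. The goblet sums were 10731 to 24291 CPM in control M and 19702 to 39879 CPM in WT M libraries.

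Against WT, black rice libraries showed a median of -0.0013 for the ER arm and 0.04 for the ATF4 arm over both codes. Derl3 (log2 difference -1.05, SE 0.24, adjusted p = 0.364 by edgeR, called by DESeq2) and Herpud1 (-0.33, SE 0.12, adjusted p = 0.590 by edgeR) were lower at an unadjusted p under 0.05, where 4.89% of all genes were. Herpud1, a ubiquitin-like protein that assists ER-associated degradation, stood between 93.2 and 164 CPM in the 6 black rice libraries (median 143) and between 123 and 212 CPM in the 6 WT libraries (median 166), with overlap. Of the ATF4 arm, Ddit4 (-0.41, SE 0.25, adjusted p = 0.653 by edgeR) and Asns (0.27, SE 0.26, adjusted p = 0.766) had the smallest p. In M libraries 13 of 14 chaperones were higher with black rice than in WT (median 0.23), where 49.3% of all genes were, and 0 members reached an unadjusted p under 0.05, where 1.71% of all genes were higher and 2.31% lower. In F libraries 11 of 14 were lower (median -0.28), where 49.5% of all genes were, and Creld2 and Derl3 reached an unadjusted p under 0.05, where 3.52% of all genes were lower. DESeq2 called Derl3 there.

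In the AOM set, over both codes, the medians were -0.11 for the ER arm, 0.09 for the ATF4 arm and -0.02 for all genes tested. Ddit3 was the only member at an unadjusted p under 0.05, with a log2 difference of 0.31 (SE 0.13, adjusted p = 1.0 by edgeR), where 0.754% of all genes were higher and 2.31% lower. Ddit4 (-0.48, SE 0.28), Herpud1 (-0.34, SE 0.20) and Atf6 (-0.23, SE 0.15) were the other members with the smallest p of their arms, each with an adjusted p of 1.0. Ddit4 stood at -1.07 without black rice F replicate 1 and at -0.15 without black rice F replicate 2. With all 12 AOM libraries the ER arm median was 0.23 and Herpud1 stood at 0.37, through the library rich in hepatocyte markers.

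In AOM M libraries 13 of 14 chaperones were lower with black rice, where 54.6% of all genes were, with a median of -0.37, and ATF4 and CHOP transcripts were higher. Ddit3 stood at 18.5, 19.9 and 16.1 CPM in black rice M libraries and at 12.8, 11.4 and 10.9 CPM in control M libraries, without overlap. Its log2 difference was 0.64 (SE 0.17, adjusted p = 0.331 by edgeR), and DESeq2 called it. Atf4, the arm's transcription factor, stood at 356, 292 and 254 CPM against 220, 256 and 163 CPM, so that the lowest black rice library lay just below the highest control library (log2 difference 0.50, SE 0.22, adjusted p = 0.361 by edgeR).

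The ATF4 arm was split in AOM M libraries, with 5 genes higher and 5 lower and a median of 0.03. Sesn2, a sestrin that restrains mTORC1, stood at 26.9, 33.4 and 17.0 CPM with black rice against 25.3, 13.1 and 11.7 CPM (log2 difference 0.63, SE 0.36), with overlap. Trib3 and Ppp1r15a had log2 differences of 0.56 and 0.12. Asns stood at 32.7, 26.4 and 46.2 CPM with black rice against 27.2, 58.3 and 34.0 CPM (log2 difference -0.18, SE 0.37), and Phgdh at 7.93, 7.64 and 9.33 CPM against 11.1, 15.3 and 19.9 CPM (-0.90, SE 0.49). Groups did not overlap for 6 members that were lower (Pdia4, Atf6, Sel1l, Phgdh, Psat1 and Ddit4), where 10.1% of all genes were, and for Ddit3, which was higher, where 6.72% were. At an unadjusted p under 0.05, Atf4 and Ddit3 were higher, where 5.42% of all genes were, and Hyou1 (-0.64, SE 0.27) and Ern1 (-0.71, SE 0.32) lower, where 8.37% were. These shares are close to the background of this comparison. The goblet sums overlapped, at 17556 to 20862 CPM with black rice and 13497 to 26354 CPM with control, and the Paneth-type sums did not, at 11.6 to 36.4 CPM and 79.0 to 655 CPM. Other lists were lower with black rice as the chaperones were: proliferation markers for 7 of 7 genes (5 at an unadjusted p under 0.05, where 8.37% of all genes were lower, median -0.88), macrophage markers for 7 of 7 (4 at that level) and the tested hepatocyte markers for 5 of 5 (4 at that level). Paneth-type markers were lower for 7 of 7 (6 at that level). Intestinal epithelium markers were instead higher for 9 of 10 genes (median 0.39) and enteroendocrine markers for 6 of 8 (median 0.40). Of these, 0 reached an unadjusted p under 0.05, where 5.42% of all genes were higher. Proliferation sums were 200 to 343 CPM in black rice M and 475 to 698 CPM in control M libraries. Their part in the values of the members was not tested.

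In AOM F libraries, with 2 black rice libraries against 3, 0 members reached an unadjusted p under 0.05, where 1.11% of all genes were higher and 2.16% lower. Hspa5 stood at 631 and 430 CPM with black rice and at 502, 311 and 372 CPM with control (log2 difference 0.43, SE 0.35). Derl3 stood at 2.85 and 2.28 CPM against 5.58, 2.15 and 3.98 CPM (-0.60, SE 0.68), beside plasma cell sums of 2365 to 3102 CPM and 5511 to 10888 CPM. Groups did not overlap for Hyou1 and Sel1l, which were higher, and Herpud1, which was lower, where 9.39% and 10.2% of all genes did so.

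For the F difference minus the M difference in the AOM set, 13 of 14 chaperones were above 0 (against 0 of 14 in the Apc set), where 53.9% of all genes were, with an ER arm median of 0.35 and an all-gene median of 0.08. The 5 genes of the sensors and XBP1 were all above 0 (median 0.41). Of the 7 degradation genes 2 were above 0 and 5 below (median -0.13). Of 34 further ER folding and degradation genes 14 were above 0 and 20 below (median -0.14). Hyou1, an ER HSP70 relative, had a value of 1.14 (SE 0.39, adjusted p = 0.314 by edgeR), Hsp90b1 of 0.82 (SE 0.36, adjusted p = 0.355), Ddit3 of -0.66 (SE 0.26, adjusted p = 0.330) and Atf4 of -0.79 (SE 0.34, adjusted p = 0.346). These 4 members reached an unadjusted p under 0.05, where 7.44% of all genes were above 0 and 6.54% below. Without black rice F replicate 1 the ER arm median was 0.06. Proliferation markers were above 0 for 7 of 7 genes for the same difference, 3 of them at an unadjusted p under 0.05.

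**Figure D4:**
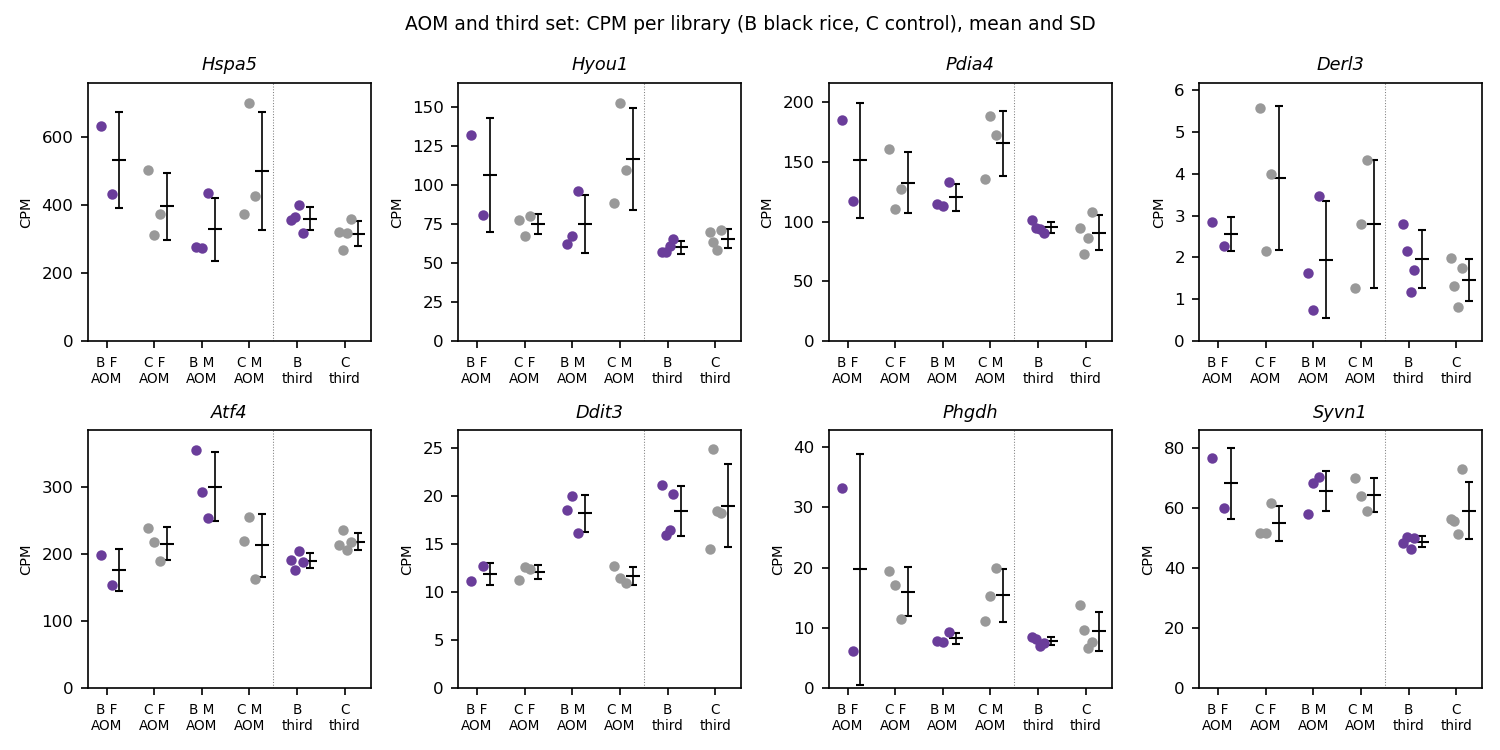
CPM per library (y axes, linear and starting at 0) of 8 members in the AOM set (left of the dotted line, black rice F with 2 libraries) and the third set (right). Points are libraries and the bar shows the mean with the SD. Black rice M libraries of Ddit3 lie between 16.1 and 19.9 CPM, above the AOM control M libraries, and black rice libraries of Syvn1 in the third set lie between 46.3 and 50.1 CPM, below their controls.

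In the third set the ATF4 arm was lower with black rice for 10 of 10 genes, where 48.7% of all genes were, with a median log2 difference of -0.14 and a range from -0.27 to -0.0029, beside a median of 0.01 over all genes. The ER arm had a median of -0.0045. Syvn1, the HRD1 ubiquitin ligase of ER-associated degradation, was the only member at an unadjusted p under 0.05, where 3.81% of all genes were lower and 4.12% higher. It stood at 48.4, 50.1, 46.3 and 50.1 CPM in black rice libraries and at 56.1, 55.6, 51.3 and 72.9 CPM in control libraries, without overlap (log2 difference -0.28, SE 0.12, adjusted p = 0.622 by edgeR). Atf4 stood at 192, 176, 204 and 189 CPM against 214, 236, 206 and 218 CPM, again without overlap (-0.20, SE 0.09, adjusted p = 0.635 by edgeR). Creld2 (-0.19, SE 0.10, adjusted p = 0.661 by edgeR) and Ddit4 (-0.15, SE 0.10, adjusted p = 0.729) followed by p in their arms. The groups did not overlap for 4 members, Derl1, Syvn1, Atf4 and Ddit4, all lower, where 2.82% of all genes did so.

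The diet differences of the Apc and AOM sets were set against each other in a joint fit of their black rice and control libraries. The Apc difference minus the AOM difference was above 0 for 14 of 14 chaperones and foldases, where 52.3% of all genes were, with a median of 0.20 beside 0.02 over all genes, and the median of the ATF4 arm was -0.20. This value averages 2 codes that went opposite ways. The chaperone medians of the separate fits were 0.58 in Apc M and -0.37 in AOM M libraries. In F libraries they were -0.40 in the Apc set and 0.11 in the AOM set. Atf6 had a value of 0.40 (SE 0.18), Dnajc3, a co-chaperone that inhibits PERK, of 0.30 (SE 0.18), Ddit3 of -0.41 (SE 0.17) and Trib3 of -1.29 (SE 0.57), each with an adjusted p of 0.861 by edgeR. Atf6 was above 0 and Ddit3 and Trib3 below at an unadjusted p under 0.05, where 2.41% and 2.89% of all genes were. With all 12 AOM libraries the ER arm median was -0.10 and Dnajc3 stood at -0.13.

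**Figure D5:**
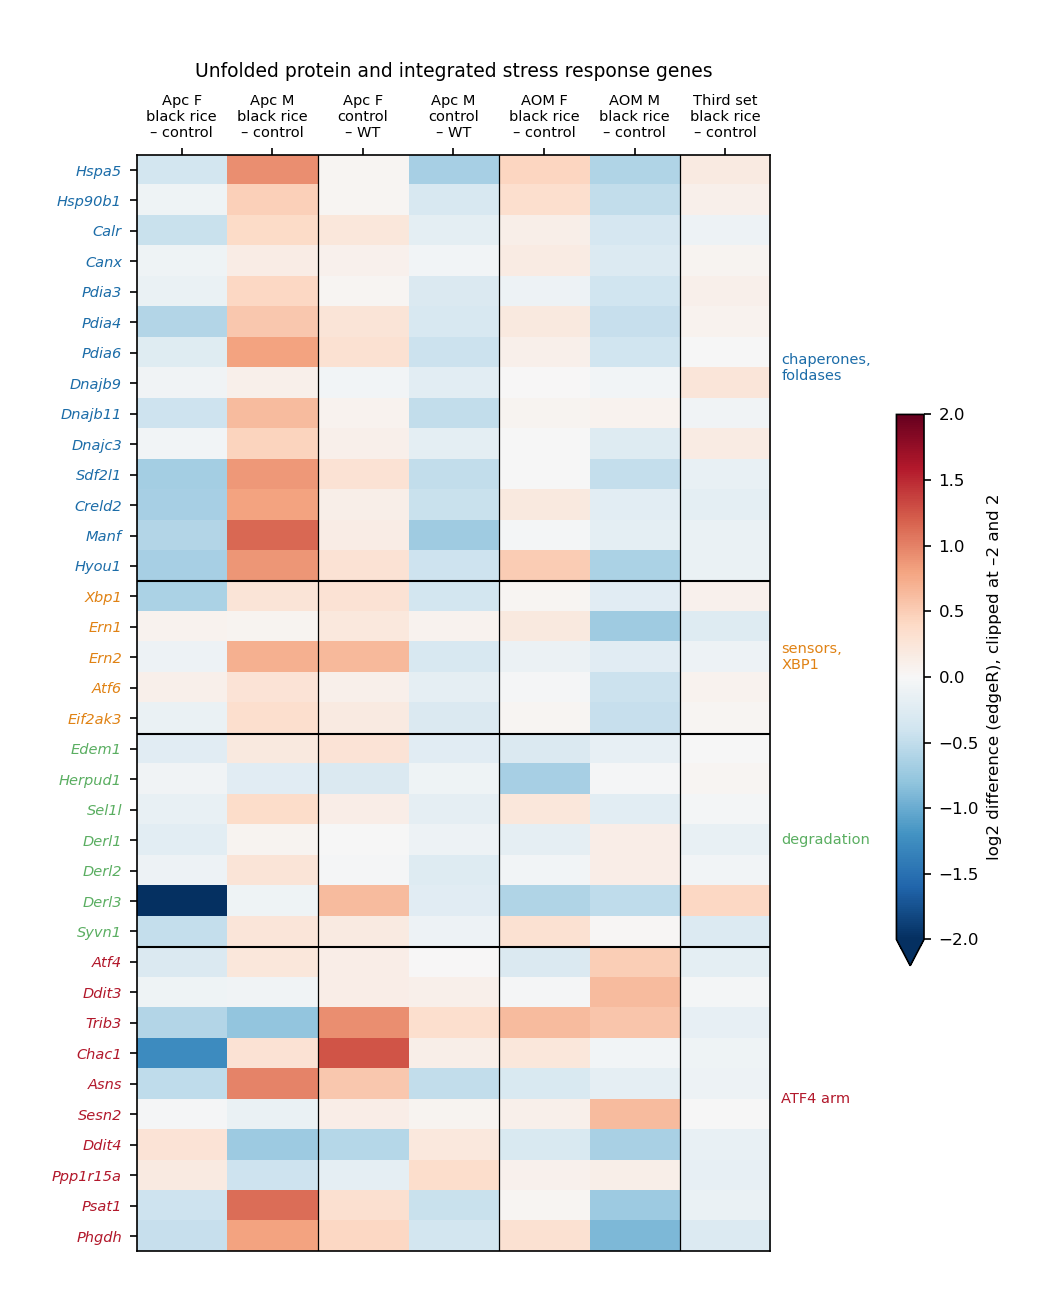
Log2 difference fitted by edgeR (colour, clipped at -2 and 2) for the 36 members (rows, grouped by role) in 7 comparisons (columns). The chaperone rows are red in the Apc M diet column and blue in the Apc F diet column, with medians of 0.58 and -0.40, and pale in the third set.

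Further genes of the same pathways were counted in the Apc set, and none passed an adjusted p of 0.05 in edgeR. Of 34 other ER folding and degradation genes, 12 were higher and 1 lower with black rice in M libraries at an unadjusted p under 0.05, where 3.67% and 4.86% of all genes were, among them Sec61a1, a subunit of the translocation channel, and Uggt1, the glucosyltransferase that checks glycoprotein folding. Of 28 further ATF4 and amino acid response genes, 9 were higher and 1 lower, including the transporters Slc7a5 and Slc7a11 and 5 tRNA synthetase genes (Aars1, Cars1, Mars1, Wars1 and Yars1). In F libraries 0 and 4 of the 34, and 1 and 5 of the 28, were higher and lower at that level, where 4.51% and 5.73% of all genes were. For the F difference minus the M difference 16 of the 34 and 11 of the 28 were below 0 at that level, where 4.58% of all genes were, and 0 and 1 above. The 10 cytosolic heat shock genes, which respond to misfolded protein outside the ER, had 0 members at that level in either code. They were lower in control than in WT for 10 of 10 genes, where 49.1% of all genes were (median -0.32), with 0 at that level. Of the 6 genes of eIF2 and its kinases, 0 reached it in M libraries and 2, Eif2s1 and Eif2b5, were lower in F libraries, where 5.73% of all genes were.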

How the data were processed

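The authors deposited raw counts, whole numbers of reads per gene without normalization, for 38 libraries in 3 tables. Per the labels, RNA was extracted with Trizol, captured with oligo(dT) and sequenced on DNBSEQ. Per the file headers, featureCounts 2.0.1 with Ensembl 104 made the tables of the AOM set and the third set, and the headers name no strand option. The submitters' processing notes list FastQC, fastp, HISAT2, SAMtools and featureCounts without versions.

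Symbols came from a GENCODE table (52083 of 55416 identifiers), and 0 columns were unmapped. Ddit3 had a second identifier at 0 counts, left out. The fits, 1 per table, used edgeR 4.0.16 under R 4.3.3 (filterByExpr, TMM, quasi-likelihood F tests on group means, Benjamini-Hochberg adjustment over all genes, threshold 0.05). The genes tested numbered 21624 in the Apc, 21895 in the AOM and 20831 in the third set. SE is the log2 difference divided by the square root of F. Log2 CPM used a pseudocount of 0.1. DESeq2 1.42.0, other scaling, no filter, a replicate block, the compared groups alone and leaving out each library were alternatives. On simulated data the fit recovered 59%, 27% and 42% of genes changed by a log2 of 1 in the diet comparisons of the Apc set, the AOM set and the third set, and 84%, 60% and 80% at a log2 of 2. The Apc and AOM values are for comparisons over both codes. For Apc minus AOM 10% and 51% were recovered at these sizes. Comparisons within a code and F minus M differences were not simulated. Intervals and p-values cover no error of PCR duplicates.

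The members and lists were chosen with earlier results of these data known. Genes named with statistics are the 2 of each arm with the smallest p in each comparison over both codes, each F minus M difference and the third set, and per-library values are also given for Hspa5, Xbp1, Ern2, Derl3, Atf4, Ddit3, Trib3, Chac1 and Asns. Others named within a code were chosen after their values were seen.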

Additional observations from a re-analysis of the deposited data

Results flagged for a closer look

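In the third set 3 members had a black rice library far from the other 3, among 72 groups of 4 examined, where chance gives about 1 in 20. Eif2ak3 stood at 26.8 CPM in black rice replicate 2, Trib3 at 0.521 CPM in black rice replicate 1 and Ppp1r15a at 19.2 CPM in black rice replicate 4, each the highest of its group.

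In the AOM set, replicate 3 of black rice F, which entered no comparison, held several members above the highest AOM control library, in CPM without TMM scaling. The chaperone genes were Hspa5 at 797, Hsp90b1 at 614, Calr at 960, Pdia4 at 222, Dnajb9 at 92.1, Dnajc3 at 178, Creld2 at 50.1 and Hyou1 at 190. The degradation genes were Herpud1 at 173, Sel1l at 148, Derl2 at 77.8 and Syvn1 at 129, and the ATF4 arm genes were Trib3 at 1.30 and Chac1 at 8.75. Of the 36 members 13 lay above all 11 other AOM libraries and 10 below them, the goblet cell IRE1 gene Ern2 at 1.49 against at least 37.8 and Phgdh at 0.744 against at least 6.49 among them. The hepatocyte markers of this library are given above, and its goblet markers summed to 412 against at least 8986 in the others. Their part in these values was not tested.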

How the results depend on the processing

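By edgeR 0 members were called with other size factors, with the compared groups alone or with all 12 AOM libraries, and over all alternatives 219 of 229 counts of called members stayed at 0. The others were these. With no low-count filter 1 member, Derl3, was called in the Apc black rice against control comparison over both codes and in F libraries. Of all 37473 genes tested, 23 and 15 were called there. DESeq2 called 1 member (Derl3) in these comparisons and against WT over both codes and in F libraries, 1 (Manf) in Apc M libraries, 1 (Ddit3) in AOM M libraries and 4 for the Apc F minus M difference. Leaving out each replicate in turn, 0 to 1 members were called in Apc F libraries, and the ER arm genes at an unadjusted p under 0.05 numbered 3 to 11 in F libraries, 5 to 14 in M libraries and 10 to 18 for their difference. In M libraries the count was 5 without black rice replicate 3 and 6 without control replicate 1.

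Of 458 list medians under alternatives, 448 moved by less than the spread between libraries. The pooled SD between replicates was 0.19 (ER arm) and 0.24 (ATF4 arm) in the Apc set, and 0.19 and 0.37 in the AOM set. Each exceeds in size the diet median over both codes, so a median could reach 0 within it. With 1 replicate left out, that of the Apc ER arm ran from 0.00041 to 0.14. The AOM ATF4 arm ran from -0.052 to 0.16 and the third set ER arm from -0.063 to 0.095. Leaving out each replicate, the ATF4 arm ran from -0.46 to -0.049 in Apc F and from -0.41 to 0.30 in AOM F libraries, and for F minus M from -0.80 to 0.49 in the AOM set. The ER arm ran from -0.83 to -0.49 for the Apc F minus M difference and from 0.060 to 0.46 for the AOM F minus M difference. With all 12 AOM libraries the ER arm stood at 0.23 over both codes, 0.68 in F libraries, 0.88 for F minus M and -0.10 for Apc minus AOM, Herpud1 at 0.37 in the AOM set and Dnajc3 at -0.13 for Apc minus AOM. Leaving out each replicate, Chac1 ran from -0.69 to 0.015 for Apc black rice against control and Trib3 from -0.013 to 0.81 for control against WT, the values nearest 0 being those without control F replicate 1. Among other genes short of the threshold, Trib3 ran from -0.86 to -0.037 for Apc black rice against control and from -1.59 to -0.67 for Apc minus AOM, Asns from 0.088 to 0.41 for black rice against WT, and Ddit4 from -1.07 to -0.15 for AOM black rice against control. The r of Hspa5 with plasma cell markers was -0.016 within groups and -0.21 without the black rice F libraries, and that of Creld2 -0.048 without them, an alternative chosen after seeing the data. The causes of these shifts were not tested.

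The replicate numbers were not used as pairs in the main fits. Deviations of same-numbered libraries correlated above 0.1 in 13 of 45 Apc, 7 of 15 AOM pairs and 1 of 4 pairs of the third set. Their median r was -0.059, 0.096 and -0.35, against 0.016, -0.042 and 0.067 for other pairs. With the replicate number as a block 0 members were called in each comparison. In the AOM set the block took the genes passing for F minus M from 0 to 203 of 21895. Whether AOM libraries of the same number belong together was not tested further. At these depths the scarce transcripts Trib3 and Chac1, under 1 CPM in most libraries, are the least precise.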
